A study of Mus musculus with 5 samples.

Results

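The high mobility group (HMG) genes encode small, abundant chromatin proteins that shape DNA and nucleosomes without being histones. The 9 genes described here are Hmgn1, Hmgn2, Hmgn3 and Hmgn5 (HMGN family), Hmga1 and Hmga2 (HMGA family) and Hmgb1, Hmgb2 and Hmgb3 (HMGB family), 9 of the 21990 genes listed by the authors. They were picked by name, and the choice was prompted by their values in the comparison below: Hmgn2 was known to be much lower in the cells carrying Cd137, and its relatives were added for comparison. Their differences between the groups are therefore given as a description, with no test.

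The cells were RAW264.7, a macrophage-like line of the mouse. Both groups expressed Renilla luciferase, the control group nothing else, and the CD137 group in addition mouse Cd137, a receptor of the tumour necrosis factor receptor superfamily. The series has 5 samples, 2 control and 3 CD137, of which control replicate 2 and the CD137 libraries 2 and 3 were used here. The labels give no promoter or vector for Cd137, and do not say whether a group is 1 clone or several, or whether the replicates are separate cultures. The control is 1 library, so the only replicate spread is that between the CD137 libraries, which may be technical.

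HMGN proteins bind the nucleosome core and loosen chromatin in competition with linker histone H1. HMGA proteins hold AT-hooks that sit in the minor groove of AT-rich DNA, and HMGB proteins carry a pair of HMG boxes that bend DNA. HMGB1 is best known in macrophages, which release it as an alarm signal, and Hmga2 is an embryonic and tumour gene held down in most adult tissues by the let-7 microRNAs.

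Sequences from the starts of the genes are shown first. At the first listed start of each gene, the lower members held a motif that the HMGA genes lacked. The other start of Hmgb1, a lower member, lacked it too. This contrast was picked from 6 motifs after the values were seen. Promoters of RefSeq (GRCm38.p6, the same assembly as mm10), from 250 bases before to 50 after the start, were matched for 8 of the 9 genes, all but Hmgn3. The CCAAT box, the letters CCAAT on either strand, is known as the site of the factor NF-Y. It was found in the promoters of 6 of the 6 members that were lower in CD137 cells. In the 2 HMGA genes the count was 0. Among all promoters of that length 37.4% hold it, and among those of expressed genes 38.4%. Lower members were counted at their first RefSeq start, and the HMGA genes at every RefSeq start. For Hmgb2, Hmgb3 and the first Hmgb1 start, the bases after the start matched no GENCODE M21 transcript of the gene. The other Hmgb1 start, which holds no CCAAT, did match. The windows below run from 100 bases before the start to 10 after it, and capitals mark CCAAT. The 3 members lowest relative to the control and both HMGA genes are shown.
Hmgn2 promoter, chr4:133967982-133968091, minus strand: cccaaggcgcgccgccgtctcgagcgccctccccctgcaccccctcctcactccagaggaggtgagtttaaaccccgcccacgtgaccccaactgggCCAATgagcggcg
Hmgb1 promoter, chr5:149053048-149053157, minus strand: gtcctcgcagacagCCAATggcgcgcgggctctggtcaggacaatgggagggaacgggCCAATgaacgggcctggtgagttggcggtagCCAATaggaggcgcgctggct
Hmgb2 promoter, chr8:57511743-57511852, plus strand: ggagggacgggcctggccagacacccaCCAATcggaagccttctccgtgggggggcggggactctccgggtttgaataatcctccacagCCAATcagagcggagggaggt
Hmga1 promoter, chr17:27556474-27556583, plus strand: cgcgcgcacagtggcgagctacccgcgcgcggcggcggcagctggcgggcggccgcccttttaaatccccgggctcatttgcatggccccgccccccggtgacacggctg
Hmga2 promoter, chr10:120476460-120476569, minus strand: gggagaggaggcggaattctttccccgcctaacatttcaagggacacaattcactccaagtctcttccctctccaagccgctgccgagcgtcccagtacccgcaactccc

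The Hmgn2 promoter held 1 CCAAT box, from 3 bases before the start to the second base of the transcript, with an E-box (CACGTG) at -21 to -16. Hmgb1 held 3, beginning 86, 42 and 11 bases before its first RefSeq start, and none at its other start. Hmgb2 held 4, of which those at -73 and -11 lie in the window above and those at -243 and -198 lie further out. Hmgb3 held 3, at -94, -51 and -5. Hmgn1 had boxes at -81 and -21, and Hmgn5 had one on each strand, at -135 and -46. The Hmga2 gene listed by the authors reaches 120476935, upstream of the RefSeq start at 120476469. The sequence before that upstream position was not searched. The pattern was noticed after the values were seen. It is a description of letters in a window, and whether a factor binds there was not measured.

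**Figure D1:**
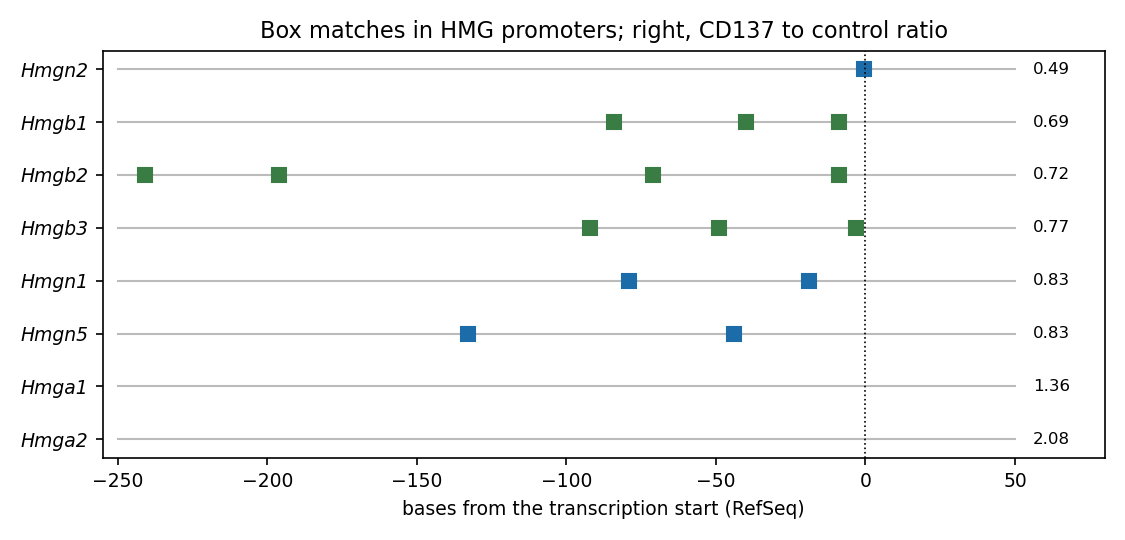
CCAAT boxes on either strand (squares) along the promoters of 8 HMG genes, with distance from the RefSeq start in bases on the horizontal axis; where a gene has several starts the first is drawn. Genes are ordered by the ratio of the CD137 mean to the control, printed at the right. The 6 genes with a ratio below 1 have 1 to 4 boxes each, and Hmga1 and Hmga2 have none at the starts drawn.

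In all, 6 motifs were searched on both strands, and a site may be counted for more than 1. No member had an E2F consensus (TTTCCCGC, TTTCGCGC, TTTGCCGC or TTTGGCGC, held by 4.1% of promoters of expressed genes) or a TATA box (TATAAA, 6.7%). The E-box (10.2%) was found in Hmgn2 and at the other start of Hmgb1. The GC box (GGGCGG, 62.6%) was found in Hmgn1, Hmgn2, Hmga1, Hmga2, Hmgb2, Hmgb3 and the other Hmgb1 start. The NF-kB consensus (10.4%) was found in Hmgb2, at -43 to -34, and at the first start of Hmga1. GC content of the members' promoters ran from 56.7% to 77.0%, against a median of 60.7% for expressed genes.

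The 3′ untranslated regions set Hmga2 apart from the other members. The microRNA let-7a is shown with its seed, bases 2 to 8, in capitals, followed by the stretches of the GENCODE M21 transcripts of Hmga2 and Hmga1 that hold the complement of the seed, CTACCTC, also in capitals.
mmu-let-7a-5p: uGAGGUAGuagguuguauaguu
Hmga2 site at base 58: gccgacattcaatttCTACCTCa
Hmga2 site at base 1295: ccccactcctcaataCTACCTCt
Hmga2 site at base 1733: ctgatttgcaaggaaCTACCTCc
Hmga2 site at base 2591: aatcaaaacacactaCTACCTCt
Hmga1 site at base 801: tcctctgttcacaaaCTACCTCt

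Positions count from the first base after the stop codon. Hmga2 held 4 seed complements in 3014 bases, Hmga1 held 1 in 1178, and the other 7 members held 0. At least 1 was present in 10.3% of 10087 expressed genes with an annotated region, and at least 4 in 8 genes (0.1%). Genes with more sites had longer regions: the median was 1134 bases for all 10087, 2388.5 with at least 1 site and 3638 with at least 4. The shares were not adjusted for length. MicroRNA levels were not measured. The median log2 difference between CD137 and control was 0.02 for genes with at least 1 site and 0.03 for all 10087. For the 8 genes with at least 4 it was 0.11. Hmga2 is itself 1 of these 8 and was chosen with its values known, so that median is no outside evidence on the sites.

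Levels are FPKM as deposited, that is, sequenced fragments scaled to transcript length and library size. A gene counted as expressed if any library had 1 FPKM or more, which held for 10720 genes, among them all 9 members. Hmgn3 passed only through the CD137 libraries. Whole reads were recovered from the authors' two-library p-values, and relative to the control the depths came to 0.983 for CD137 replicate 2 and 0.988 for replicate 3. Intervals on read ratios are exact binomial 95% intervals, scaled to these depths, and cover counting error only. The introduced gene, Tnfrsf9 (Cd137), stood at 5.06 FPKM in the control and 364.3 and 369.95 in the CD137 libraries, in the direction of the labels. Of 10 macrophage markers, 9 reached 1 FPKM and Mertk stood at 0.00 to 0.03. Their summed level was 3122 FPKM in the control and 1964 and 2012 in the CD137 libraries. Lyz2 alone read 1693 FPKM in the control against 646 and 669 FPKM, and without it the sums were 1429, 1318 and 1343 FPKM. Of the 9 markers 5 were higher in both CD137 libraries (Adgre1, Ptprc, Itgam, Spi1 and Fcgr1) and 4 were lower (Lyz2, Cd68, Csf1r and Cd14). Summed markers of T, B, fibroblast and endothelial cells lay between 0.24 and 4.94 FPKM. The epithelial sum stood apart in 1 library, at 0.67 FPKM in the control, 6.28 in CD137 replicate 2 and 1.17 in replicate 3. The part of these shifts in the HMG values was not tested, and in bulk RNA fewer cells of a kind and less RNA per cell cannot be told apart.

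Across the family, both CD137 libraries lay below the control for 6 members (Hmgn1, Hmgn2, Hmgn5, Hmgb1, Hmgb2, Hmgb3) and above it for 3 (Hmgn3, Hmga1, Hmga2). Among all expressed genes both libraries lay below the control in 40.2% and above it in 49.0%. These shares are printed beside the members only as background. The members' median difference on the log2(FPKM + 1) scale was -0.27, and that of all expressed genes was 0.03. HMGB members were all lower and HMGA members were both higher. Of the HMGN members only Hmgn3 was higher, at 0.70 FPKM in the control. It counted as expressed only through the CD137 libraries, so its direction is no support for a split.

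**Figure D2:**
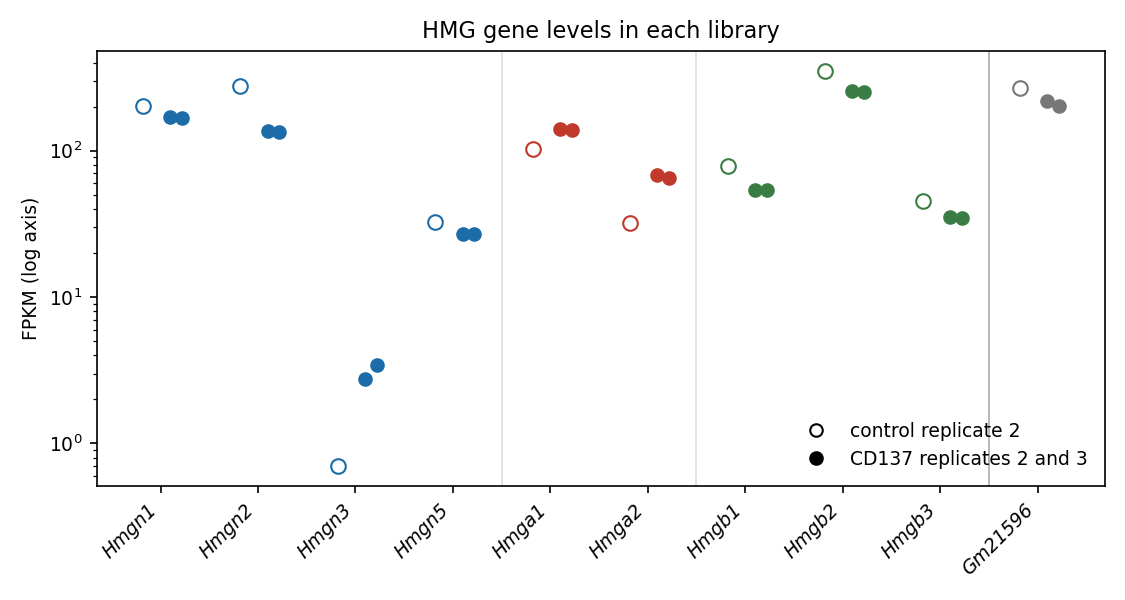
FPKM (log axis) of the 9 HMG genes and of Gm21596, a processed copy of Hmgb1. Open circles mark control replicate 2 and filled circles CD137 replicates 2 and 3. Blue marks HMGN, red HMGA, green HMGB and grey the copy. The filled circles of each gene nearly coincide, below the open circle in 6 members and above it in 3.

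Hmgn2, on chr4:133964739-133967991 (minus strand, mm10; gene ID 15331), encodes one of the most widely expressed nucleosome-binding HMGN proteins. Its level was 275 FPKM in the control and 135.7 and 134.3 FPKM in CD137 replicates 2 and 3. The CD137 mean was 134.98 ± 0.990 FPKM (SD, n = 2), 0.491 of the control. The ratio of replicate 3 to replicate 2 was 0.990, and both lay far below the control. The reads behind these values were 6080, 2949 and 2934, and their depth-scaled ratio was 0.491 (95% interval 0.474 to 0.509). A CD137 mean at or below 0.5 of the control was found in 0.634% of expressed genes, 68 of 10720. Among 4222 genes at 20 FPKM or more in the control, 22 (0.521%) were that low. Hmgn2 ranked 244 of the expressed genes by level in the control and 492 in CD137 cells.

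Hmgn1 (chr16:96121588-96127725, minus strand) encodes another widely expressed nucleosome-binding HMGN protein. It read 202.1 FPKM in the control and 168.5 and 165.95 FPKM in the CD137 libraries. The ratio was 0.827, with a read interval of 0.796 to 0.860. The order of the pair turned: Hmgn2 was the higher of the pair in the control and Hmgn1 in both CD137 libraries. Hmgn5 (chrX:109004537-109013380, minus strand), an HMGN protein with a long acidic tail, read 32.3 FPKM in the control and 26.75 and 26.84 in the CD137 libraries. Its ratio was 0.829, with a read interval of 0.768 to 0.894.

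Hmgn3 (chr9:83109942-83146735, minus strand), known from endocrine and neural tissues, was the only HMGN gene that was higher. Its level was 0.70 FPKM in the control and 2.76 and 3.43 FPKM in the CD137 libraries, a mean of 3.10 ± 0.474 (SD, n = 2). The reads were 12, 57 and 69, giving a ratio of 5.33 with an interval of 2.95 to 10.6. In FPKM the ratio was 4.42, and on the log2(FPKM + 1) scale the difference was 1.27. At these levels Hmgn3 made up 0.1% of the members' summed FPKM in the control and 0.4% in CD137 cells. The summed HMGN level was 510.1 FPKM in the control and 332.1 ± 2.26 (SD, n = 2) in CD137 cells, a ratio of 0.651. Without Hmgn2 the sum was 235.2 and 197.1 FPKM, a ratio of 0.838.

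Hmga2 (chr10:120361268-120476935, minus strand), the embryonic AT-hook gene, was higher by about the factor by which Hmgn2 was lower. It read 31.9 FPKM in the control and 67.9 and 64.6 FPKM in the CD137 libraries, a mean of 66.3 ± 2.31 (SD, n = 2) and 2.08 times the control. The reads were 2309, 4771 and 4573, and their ratio was 2.05 (1.96 to 2.15). A CD137 mean at least 2 times the control was found in 2.8% of expressed genes, 300 of 10720. Hmga2 ranked 2734 by level in the control and 1222 in CD137 cells. Whether the let-7 sites shown above have a part in this was not tested.

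Hmga1 (chr17:27556574-27563672, plus strand), an AT-hook gene active in dividing cells, read 102.0 FPKM in the control and 140.0 and 138.2 FPKM in the CD137 libraries. The ratio was 1.36, with a read interval of 1.31 to 1.42. Of the 50-base words of the Hmga1 transcript 69.1% also occur elsewhere in the annotated transcripts, so its value is uncertain. The summed HMGA level was 134.0 FPKM in the control and 205.4 ± 3.56 (SD, n = 2) in CD137 cells, a ratio of 1.53.

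Hmgb2 (chr8:57511843-57515999, plus strand), a DNA-bending protein of dividing cells, was the highest member in every library. It read 352.6 FPKM in the control and 253.7 and 253.5 FPKM in the CD137 libraries, a ratio of 0.719 (read interval 0.698 to 0.740). Hmgb1 (chr5:149046702-149053057, minus strand) read 78.7 FPKM in the control and 54.2 and 54.0 FPKM in the CD137 libraries, a ratio of 0.687 (0.660 to 0.717). Hmgb3 (chrX:71555917-71560673, plus strand), known from blood progenitors, read 45.3 FPKM in the control and 35.0 and 34.8 FPKM in the CD137 libraries, a ratio of 0.770 (0.718 to 0.828). All 3 HMGB genes were lower in both CD137 libraries. The summed HMGB level was 476.7 FPKM in the control and 342.6 ± 0.370 (SD, n = 2) in CD137 cells.

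Many processed copies of Hmgb1 lie in the mouse genome. In GENCODE M21, 40 pseudogenes share at least 100 of its 50-base words, and 36.8% of the words of Hmgb1 occur in some other gene. One of these copies, Gm21596, holds 36.4% of the Hmgb1 words. It read 269.6 FPKM in the control and 218.0 and 201.2 FPKM in the CD137 libraries, above Hmgb1 per length. In reads the control had 3742 for the copy and 4032 for Hmgb1. With the reads of both summed, the ratio was 0.731 (0.710 to 0.753), and the copy took 48.1% to 52.1% of them. Of the Hmgn2 words 67.1% occur in other genes, all of them also in Gm10282, which was not analysed here. The assignment of reads from that stretch is not described in the sources used here, so the Hmgn2 ratio of 0.491 is uncertain to that extent. The shares were 34.2% for Hmgb3, 21.9% for Hmgb2, 18.6% for Hmgn5, 6.5% for Hmgn1, 0.9% for Hmga2 and 0.0% for Hmgn3. No member's position overlaps that of another gene listed by the authors.

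**Figure D3:**
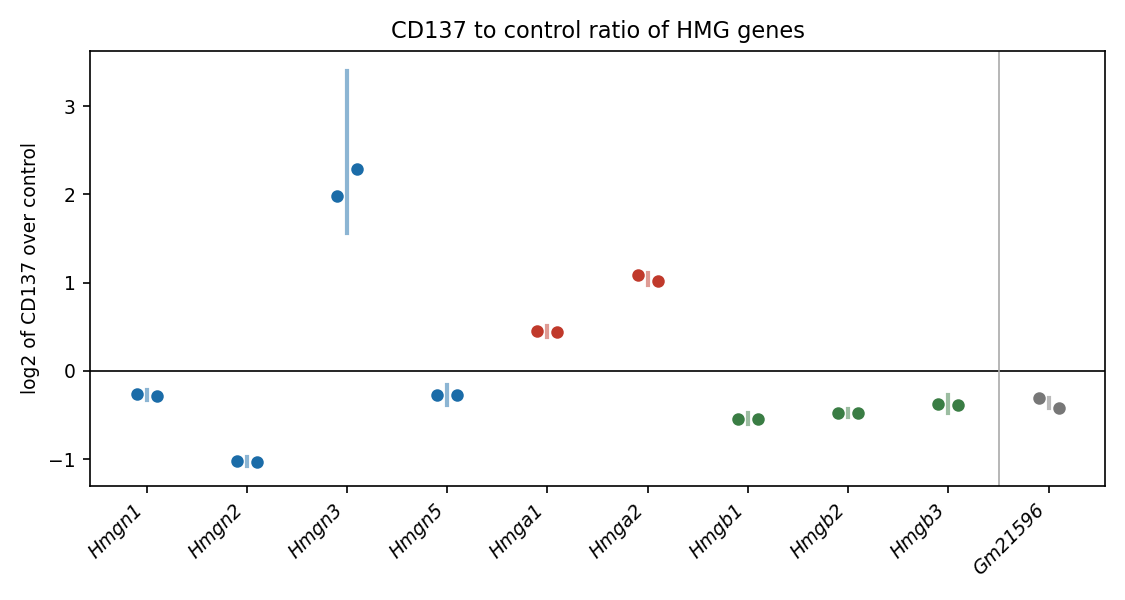
Log2 of the FPKM of CD137 replicates 2 and 3 over the control (points) for the HMG genes and the copy Gm21596, with 95% counting intervals from recovered reads (vertical lines). Blue marks HMGN, red HMGA, green HMGB and grey the copy. Hmgn2 lies near -1, Hmga2 near 1, and Hmgn3, with 12 reads in the control, has the widest interval.

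The CD137 libraries were close to each other in the members. The absolute log2 ratio of replicate 3 to replicate 2 had a median of 0.01 over the 9 genes, with 0.24 for Hmgn3 and at most 0.07 for the others. Over the 4222 genes at 20 FPKM or more in the control, that ratio had a median of 0.04 and a 95th percentile of 0.15. The smallest absolute difference between the groups among members was 0.26 on the log2(FPKM + 1) scale, in Hmgn5. Each member's difference thus exceeded its own spread between CD137 libraries, but how far control cultures vary cannot be read from 1 library.

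By level, the order of the members in the control was Hmgb2, Hmgn2, Hmgn1, Hmga1, Hmgb1, Hmgb3, Hmgn5, Hmga2 and Hmgn3. Hmgn5 and Hmga2, at 32.3 and 31.9 FPKM, were the closest neighbours. In CD137 cells the order was Hmgb2, Hmgn1, Hmga1, Hmgn2, Hmga2, Hmgb1, Hmgb3, Hmgn5 and Hmgn3. Hmga1, at 139.1 ± 1.25 FPKM, and Hmgn2, at 134.98 ± 0.990 FPKM (SD, n = 2 each), were the closest there. Their library values did not overlap, but levels of different genes also rest on the transcript lengths used. Ranks, sums and shares rest as well on how reads from stretches shared with other genes were assigned, as in Hmgn2, Hmga1 and Hmgb1. In the control Gm21596 took 48.1% of the reads summed with Hmgb1. The 9 genes summed to 1121 FPKM in the control and 880.0 ± 6.19 (SD, n = 2) in CD137 cells, a ratio of 0.785. Hmgn2 supplied 24.5% of the sum in the control and 15.3% in CD137 cells, and Hmga2 supplied 2.8% and 7.5%.

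**Figure D4:**
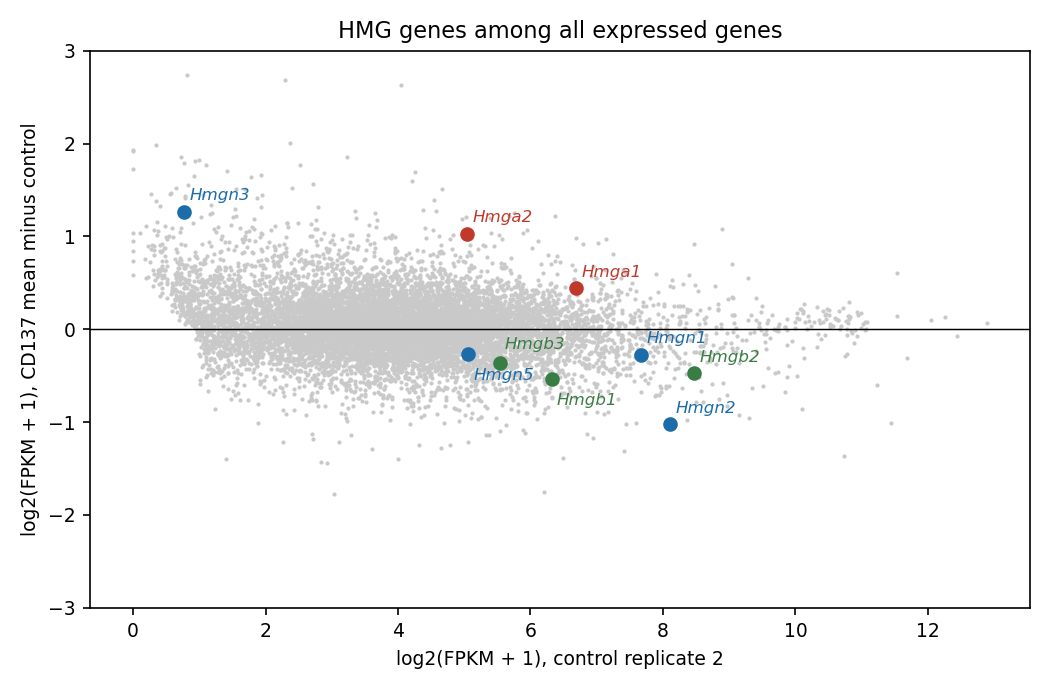
Difference on the log2(FPKM + 1) scale, CD137 mean minus control, against the control level for 10718 expressed genes (grey) with the HMG members in colour (blue HMGN, red HMGA, green HMGB); 2 genes lie beyond the vertical axis. Hmgn2 lies near -1 and Hmga2 near 1, both at the edges of the genes of like level.

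Other genes of chromatin structure and cell division were counted by limma's moderated test on log2(FPKM + 1) among expressed genes. It called 4563 of 10720 (42.6%), with 2614 higher (24.4%) and 1949 lower (18.2%) in CD137 cells, at a Benjamini-Hochberg adjusted p of 0.05. The fit over all 16003 genes with a value called 0, with a smallest adjusted p of 0.0802 and 5281 genes at an unadjusted p under 0.05, so every call below rests on the limit of 1 FPKM. The fit takes its spread from the pair of CD137 libraries and assumes that the control varies as they do. "Rose" and "fell" below mean called by this fit.

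Linker histone H1 is the protein that HMGN and HMGB proteins displace from the nucleosome. Of 8 linker histone genes 3 were expressed. Hist1h1c rose from 9.56 FPKM to 16.9 and 20.6 (limma adjusted p = 0.00520), and H1f0 fell from 354.4 FPKM to 301.7 and 297.4, a ratio of 0.845 (limma adjusted p = 0.00549). Most H1 genes make messages without a poly(A) tail, which the oligo-dT beads of this study would miss. Of 8 expressed replacement histone variants 1 rose and 2 fell. The share called, 37.5%, was under the 42.6% of all expressed genes, so the counts say nothing about the list. H2afz, the H2A.Z gene, fell from 380.8 FPKM to 239.7 and 241.3, a ratio of 0.632, and H2afj rose from 37.9 FPKM to 46.1 and 50.5.

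Histone chaperones, which carry and deposit histones, were measured in 26 genes, of which 15 fell, 1 rose and 10 were not called, with a median log2 difference of -0.22. Ptma, an acidic nuclear protein that binds H1, fell from 2786 FPKM to 1418 and 1353, a ratio of 0.497 and a log2 difference of -1.01 (SE 0.04, limma adjusted p = 0.000585). Hjurp, the chaperone of the centromeric histone, fell from 111.8 FPKM to 59.3 and 59.4, and Asf1a rose from 18.5 FPKM to 23.3 and 22.8. Ptma lay close to Hmgn2 in its ratio.

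Condensin, which compacts mitotic chromosomes, had 8 genes, and 8 of 8 fell, with a median log2 difference of -0.33. Ncapd2 fell from 44.6 FPKM to 31.9 and 32.8, and Smc2 fell from 42.0 FPKM to 31.5 and 31.1. Cohesin and CTCF, which form loops, had 15 genes, of which 6 fell and 1 rose (46.7% called, near the share of all expressed genes), with a median of -0.13. Esco2, which acetylates cohesin, fell from 19.5 FPKM to 11.7 and 11.9. Hdac8, which removes that mark, rose from 6.75 FPKM to 12.8 and 13.2. Of 22 other architectural, heterochromatin and lamina genes 15 fell and 1 rose, with a median of -0.36. Parp1 fell from 101.2 FPKM to 60.7 and 60.9 and Dek from 108.8 FPKM to 69.9 and 66.9.

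The HMG box is also the DNA-binding domain of transcription factors such as the Sox and Tcf proteins. The list held 37 genes, both such transcription factors and chromatin subunits such as Ssrp1. Of these 19 were expressed, and in the limma fit 4 fell, 0 rose and 15 were not called. The median log2 difference was -0.03. Wdhd1 fell from 19.0 FPKM to 13.2 and 13.3, and Cic from 22.7 FPKM to 16.4 and 17.0. Limma-voom on the recovered reads called 1 of the list higher. The list's share of calls, 21.1%, was under the 42.6% of all expressed genes.

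Genes of HMGB1 release and sensing moved both ways, with 4 of 13 rising and 6 falling. Ly96, the partner of the receptor TLR4, rose from 10.01 FPKM to 13.4 and 15.4, and Havcr2, which encodes TIM-3, rose from 13.3 FPKM to 17.9 and 18.2. Tlr2 fell from 70.9 FPKM to 49.2 and 51.8, and Cd24a fell from 5.57 FPKM to 2.44 and 1.34. In the let-7 pathway and its classical targets 3 of 14 genes rose and 3 fell. Myc rose from 2.56 FPKM to 6.57 and 6.49, a log2 difference of 1.08 (SE 0.08), and Ago2, the slicing Argonaute, rose from 17.9 FPKM to 25.5 and 21.9. Hras fell from 24.3 FPKM to 19.7 and 18.7, and Drosha, which cuts microRNA precursors, fell from 18.3 FPKM to 15.3 and 15.6. The share of this list that was called, 42.9%, was close to the 42.6% of all expressed genes, so the counts say nothing about the list. Limma-voom on the recovered reads called 7 genes of this list higher.

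Genes of cell division moved with the lower HMG members. Of 22 DNA replication genes 21 fell and 0 rose, with a median log2 difference of -0.66. Mcm6, a helicase subunit, fell from 89.4 FPKM to 32.7 and 34.5, a ratio of 0.376 (limma adjusted p = 0.000552), and Cdc6 fell from 13.7 FPKM to 6.10 and 6.83. Of 14 mitotic genes 12 fell and 0 rose, with a median of -0.32. Bub1 fell from 51.4 FPKM to 31.8 and 32.6, and Ccna2 from 85.8 FPKM to 59.8 and 60.1. The part of these changes in the HMG values was not tested.

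**Figure D5:**
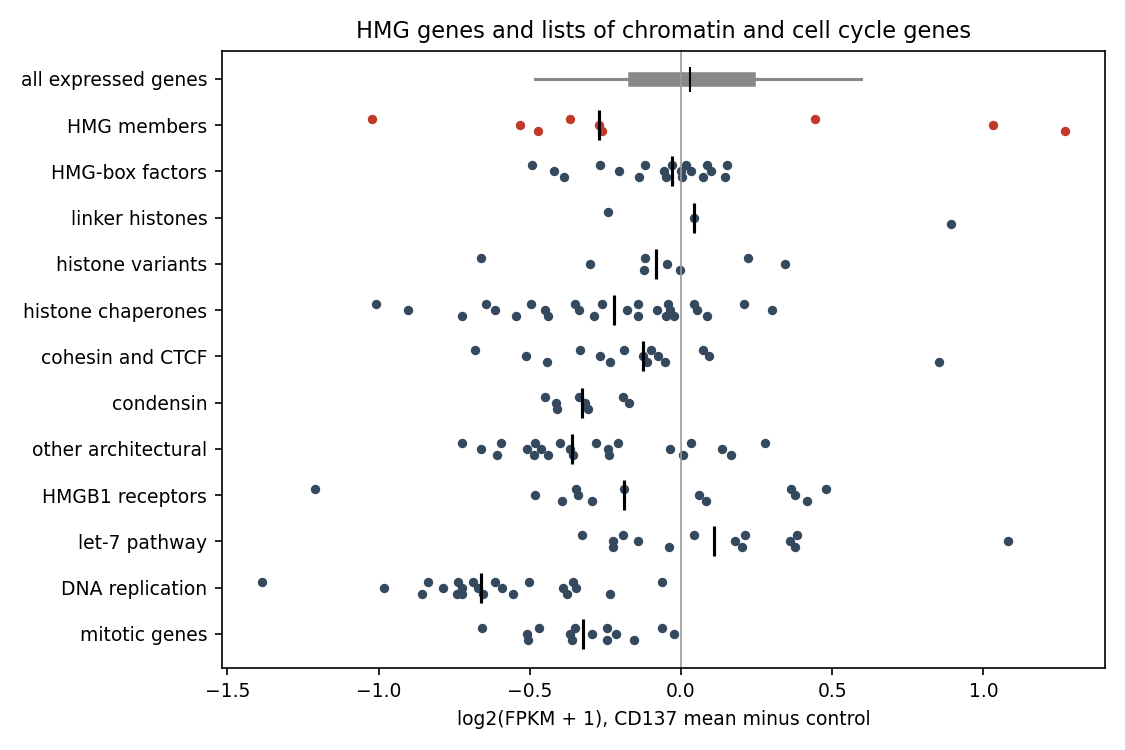
Difference on the log2(FPKM + 1) scale, CD137 mean minus control, of each expressed gene (points) in the HMG group and in 11 lists, with medians as black ticks; the top row shows all expressed genes as median, 25th to 75th percentile (thick bar) and 5th to 95th percentile (thin bar). The DNA replication list has a median of -0.66 and the HMG members one of -0.27, with members on both sides of 0.

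The genes nearest to Hmgn2 in pattern were found by the Euclidean distance of the log2 values relative to the control over the 3 libraries, among the 4222 genes at 20 FPKM or more in the control, passing over predicted genes. Fabp5, a fatty acid binding protein, was nearest, at 172.5 FPKM in the control and 84.3 and 84.8 in the CD137 libraries (distance 0.0172). It was followed by Cyp51, a cholesterol synthesis enzyme, with a ratio of 0.488, and by Ptma. Ccng2, which encodes cyclin G2, and Ddit4, an inhibitor of mTORC1 signalling, came next with ratios of 0.506 and 0.480. All 5 read about as low in replicate 2 as in replicate 3, and likeness over 3 libraries of 2 kinds carries little beyond a similar ratio.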

How the data were processed

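Messenger RNA selected with oligo-dT beads was sequenced from RAW264.7 cells, per the labels' protocols. The authors deposited FPKM values, rounded to 0.01, for each gene and library. The build mm10 and the tools RSEM, HISAT2 and Bowtie2 are listed with no role, per the submitters' processing notes. No source used here states the strandedness. The deposited log2 ratios between libraries were not used. The deposited p-values come from a two-library Poisson test, per the file headers, and served only to recover reads. The adjusted values the authors deposited beside them are treated as a score and were not used. Of 21990 genes 16003 have a value, and 1 broken line was left out.

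Each p-value was matched to the whole reads that give it, taken as a two-sided tail of one library's reads given those of the other. Reads were solved for 14632 genes (91.4%) and for 9773 of the expressed genes (91.2%). The solver's tolerances were set while the data were being examined. In simulated data for 600 genes, 94.0% were solved and 100% of these were right within 1%.

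Groups come from the sample titles. Differences were tested with limma 3.58.1 in R 4.3.3 (empirical Bayes, variance trend) on log2(FPKM + 1) for genes that reached 1 FPKM in any library, with 1 residual degree of freedom and Benjamini-Hochberg adjustment at 0.05. A fold on this scale understates the change of low genes. On simulated data for this comparison (10448 genes), the fit found 0% of the genes shifted 1.2-fold, 34% at 1.5-fold, 66% at 2-fold and 94% at 4-fold, and made 0 false calls. The simulation gave every library the same small spread, shifted only a small set of genes and held no other difference between the groups. Its 0 false calls therefore do not cover the risk that comes from having 1 control library. The HMG genes stayed in the fit and its totals, but their own test results are not reported here.

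The members, the 11 gene lists and the limit of 1 FPKM were chosen with earlier results of these data known, so no list is independent evidence of its direction. Genes were named by rule: Tnfrsf9, the 9 members, other rows named as their relatives, the 2 highest and 2 lowest called genes of each list, and the 5 genes nearest to Hmgn2; genes that this rule names and the text does not are not reported here. Lyz2 and Mertk were singled out among the markers after their values were seen. Promoters and the let-7 sequence are RefSeq's, and 3′ untranslated regions and shared 50-base words are from GENCODE M21 transcripts. Alternatives varied the filter, pseudocount, scaling, variance model, unit and replicates.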

Additional observations from a re-analysis of the deposited data

How the results depend on the processing

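The direction of all 9 members was the same under every alternative run: 3 higher and 6 lower without either CD137 replicate, with scaling by the median ratio, on FPKM + 1 and in recovered reads. Without one CD137 replicate or the other, the Hmgn2 ratio was 0.488 to 0.493. Scaling by the median ratio moved the ratios by more than the very small spread between the CD137 libraries, to 0.480 for Hmgn2, 0.809 for Hmgn1, 0.810 for Hmgn5, 1.33 for Hmga1, 0.672 for Hmgb1, 0.703 for Hmgb2 and 0.752 for Hmgb3. On FPKM + 1 they were 2.41 for Hmgn3, 0.834 for Hmgn5, 0.691 for Hmgb1, 0.720 for Hmgb2 and 0.775 for Hmgb3, and in recovered reads 5.33 for Hmgn3. Summing reads with the processed copy Gm21596, an alternative chosen after seeing the data, gave 0.731 for Hmgb1.

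The number of genes called was 4563, and 4406 with a minimum of 5 FPKM, 4545 with a pseudocount of 0.1, 4847 after scaling, 3801 without the variance trend and 5012 with limma-voom on recovered reads. Limma-voom was fitted only to the 9773 expressed genes with recovered reads and the minimum of 5 FPKM left 8843, against 10720 in the main fit. The fit over all 16003 genes with a value called 0, so it also called 0 members of every list, higher or lower, where the main fit called 12 higher and 93 lower; 5281 genes had an unadjusted p under 0.05. Limma-voom called 21 list members higher: 1 HMG-box gene, 2 histone variants, 2 chaperones, 3 other architectural genes and 7 genes of the let-7 list among them. It called 86 lower, with mitotic genes at 8 against 12 and chaperones at 11 against 15. Genes without recovered reads could not be called there, among them the chaperones Ptma and Hjurp, which fell in the main fit. With the minimum of 5 FPKM 2 histone variants rose. The cause of the other moves was not tested. Depth limits Hmgn3, with 12 reads in the control, more than any other member. No paired analysis was possible because the control and CD137 libraries used here share only replicate number 2.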

Other observations

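Gm21596, the processed copy of Hmgb1, had a ratio of reads in CD137 replicate 3 to those in replicate 2, at equal depth, of 0.923 (95% counting interval 0.876 to 0.972), and Hmgb1 had one of 0.996 (0.944 to 1.05). The intervals overlap. Among the members Hmga2 had a ratio of 0.954 (0.916 to 0.993). Gm21596 is annotated in GENCODE M21 as a processed pseudogene, and it was listed at 269.6 FPKM in the control, where Hmgb1 was at 78.7 FPKM; in reads the copy had 3742 and Hmgb1 had 4032. The part of read assignment in these values was not tested.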
